A study of Mus musculus with 6 samples.

Results

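The open chromatin of the Ifng locus was described in activated mouse CD8+ T cells that had been cultured with lung adenocarcinoma cells resistant to PD-1 blockade. Open DNA was mapped by ATAC-seq, in which a transposase cuts accessible chromatin and marks it with sequencing adapters. Res-shFabp7 denotes T cells (3 libraries) whose tumour partner carried a short hairpin RNA against Fabp7, a fatty acid binding protein, and Res-ctrl denotes T cells (3 libraries) whose partner was the matching control tumour line. In both groups the T cells came from spleen, were stimulated with anti-CD3 (5 µg/mL) and anti-CD28 (1 µg/mL), and shared medium with the tumour cells for 48 h across a porous transwell membrane, so the cell types were not in contact. The knockdown was made in the tumour cells, and the T cell libraries hold no readout of it. The sources used here do not give the strain or age of the mice, or how many hairpins or clones were used. A peak entered the description when its summit lay in the body of Ifng or had Ifng as the nearest protein-coding gene within 100 kb. Merging the peaks of the 6 libraries left 38 regions at Ifng out of 134174 regions in all, and 165 single peaks.

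Ifng encodes interferon gamma, the main antiviral and antitumour cytokine of CD8+ T cells, helper T cells and NK cells. T cell receptor signals and the cytokines IL-12 and IL-18 switch the gene on, through the transcription factors T-bet, Eomes, Runx3, STAT4, NFAT and NF-kappaB. The gene is short, and much of its control is known to lie in conserved noncoding elements spread far out on both sides, held in a loop between binding sites of the insulator protein CTCF.

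Ifng (gene ID 15978) is on the forward strand of mouse chromosome 10, at chr10:118441046-118445894 (GRCm38.p6, the assembly of mm10), a body of 4849 bp. The interval nearer to Ifng than to any other protein-coding gene, and within 100 kb, ran from -73.0 kb to 104.8 kb of the annotated start. Distances below are from that start to the midpoint of a region, negative upstream. The promoter is shown because its peak was among those that ranked higher in every Res-shFabp7 library. It is given as the 250 bases before the start, chr10:118440796-118441045, from RefSeq (GRCm38.p6), with matches to searched motifs in capitals:
Ifng promoter: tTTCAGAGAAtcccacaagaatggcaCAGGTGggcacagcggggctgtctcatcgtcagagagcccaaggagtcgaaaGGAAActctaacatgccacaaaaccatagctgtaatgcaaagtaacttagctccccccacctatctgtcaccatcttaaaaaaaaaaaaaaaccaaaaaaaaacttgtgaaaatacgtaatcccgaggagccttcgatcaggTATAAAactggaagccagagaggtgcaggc

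Its GC content was 45.2%, and 9 motifs were searched on both strands. A TATA box (TATAAA) stood at -30 to -25, a motif present in 12.4% of the 32851 RefSeq promoter windows of the same length. Further matches were a STAT motif (TTCNNNGAA, N any base) in 7.02% of windows, an E-box (CANNTG) in 66.2% and an NFAT core (GGAAA) in 55.6%. Letters of 5 further motifs were not in this window. These were AP-1, searched as TGANTCA and present in 6.75% of all windows, and the T-box, searched as TCACAC and present in 12.3%. Runx letters (TGTGGT) stood in 14.0% of windows, while the core of the cyclic AMP response element (TGACGT) stood in 6.47%. The GATA motif, searched as AGATAA, was found in 9.99% of windows. No 2 matches overlapped, and a match is a description of letters, not of binding.

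The labelled cell type was checked against marker genes. All 7 T cell markers and all 3 CD8 markers had peaks in all 6 libraries, with 164 to 172 peaks at the T cell markers in the Res-shFabp7 libraries and 138 to 169 in the Res-ctrl libraries. No library had a peak at the B cell gene Ms4a1, the keratin gene Krt8 or the lung surfactant gene Sftpc. Ncr1, a receptor of NK cells, which also make interferon gamma, had 0, 1 and 1 peaks with Res-shFabp7 and 0 in each Res-ctrl library. The 4 NK markers together had 21 to 23 peaks with Res-shFabp7 and 16 to 19 with Res-ctrl, and the 5 B cell markers 16 to 21 with Res-shFabp7 and 10 to 14 with Res-ctrl. The 5 myeloid markers had 26 to 34 peaks with Res-shFabp7 and 24 to 25 with Res-ctrl, and the 6 epithelial tumour markers had 17 to 19 with Res-shFabp7 and 12 to 13 with Res-ctrl. At the 3 CD4 and regulatory T cell markers there were 23 to 25 with Res-shFabp7 and 22 to 27 with Res-ctrl. Depth differed between the libraries. In all, 104575, 105796 and 100243 peaks were called in the Res-shFabp7 libraries, against 84844, 82153 and 96310 in the Res-ctrl libraries. Relative depth, read as the most frequent background coverage of a list, was 1.03, 0.868 and 0.959 in the Res-shFabp7 libraries and 0.709, 0.608 and 1.01 in the Res-ctrl libraries. Res-ctrl 1 and 2 were the shallow libraries, and Res-ctrl 3 was as deep as the Res-shFabp7 libraries.

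Ifng was among the genes with the most peaks. Its 165 peaks over the 6 libraries were exceeded at 355 genes, and 97.8% of the 16374 genes with any peak had fewer. The median of such genes was 19 peaks. This rank takes no account of the length of the interval assigned to a gene, which was 177.9 kb for Ifng. Each library contributed between 22 and 32 of the peaks. Of the 38 regions, 13 lay upstream, 1 covered the gene start, 2 lay wholly inside the gene and 22 lay downstream. A peak was called in all 6 libraries in 19 of the 38 regions (50%), against 42.2% of all regions. These 19 regions, called shared below, comprised 9 upstream, 1 over the start, 1 inside the gene and 8 downstream. They were 184 to 829 bp wide with a median of 369 bp, while the other 19 had a median of 142 bp. The summits of a shared region lay close together across libraries, within 50 bp at the median and 274 bp at most. Exons, introns and UTRs could not be given, as the gene table used here holds gene bodies only.

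**Figure D1:**
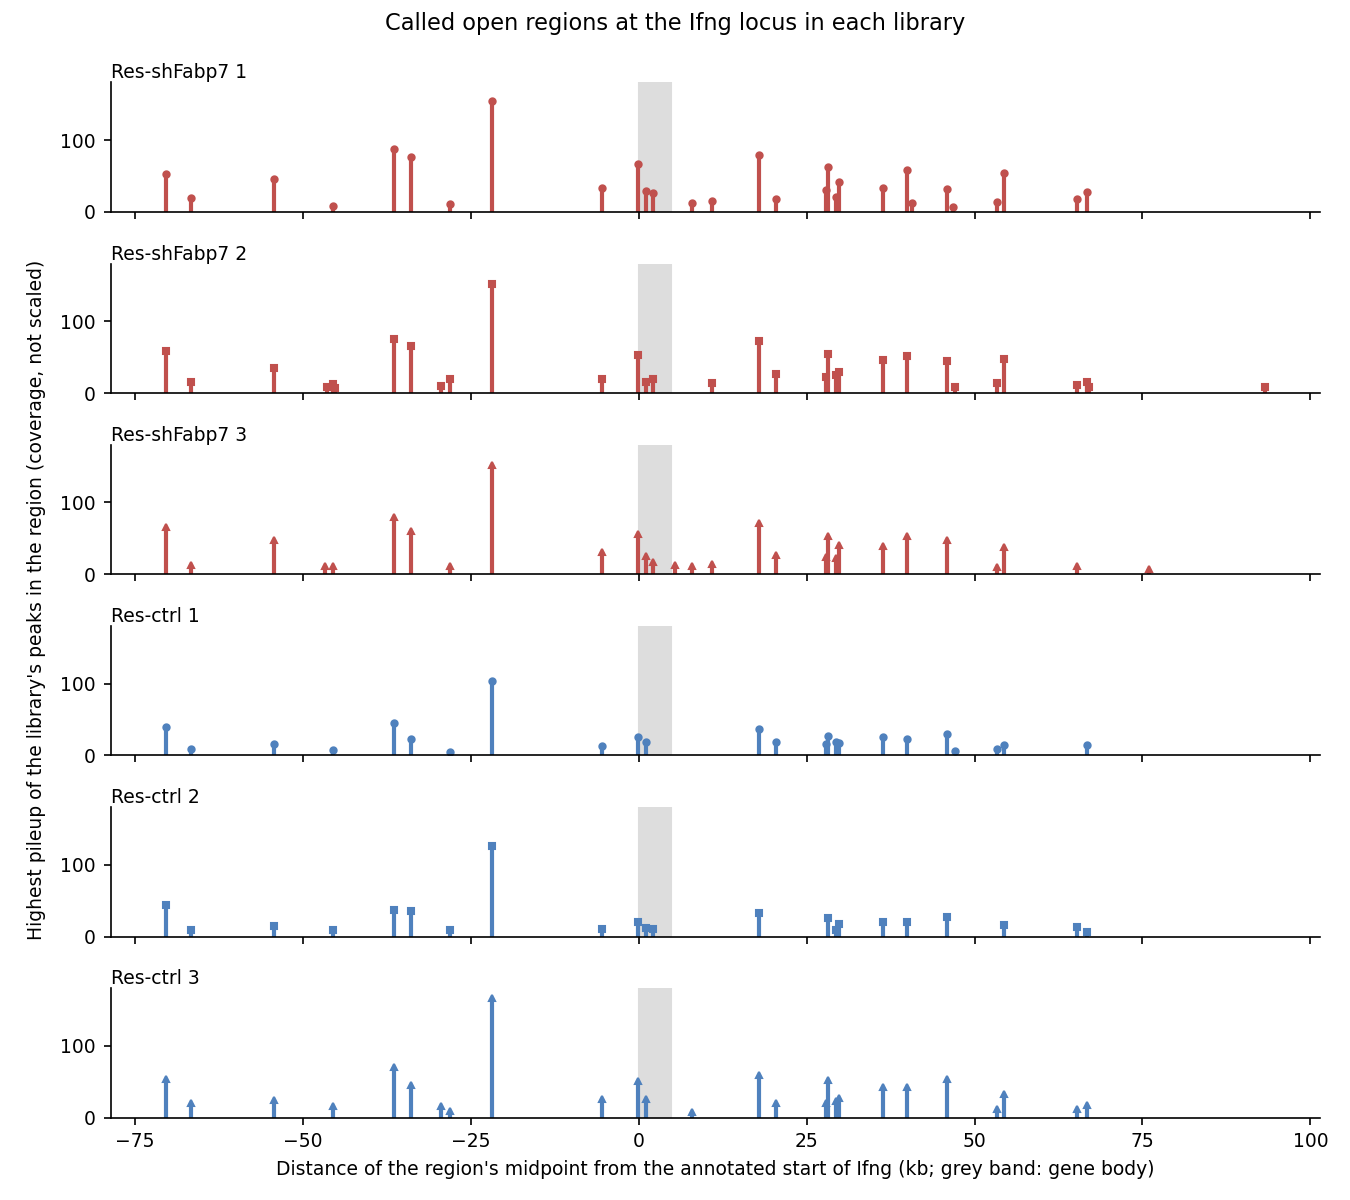
Pileup of the Ifng regions in each library. Each stem is a region with a peak in that library, placed at its distance in kb from the annotated start of Ifng (grey band: gene body), and its height is the authors' pileup, the unscaled coverage at the summit. The tallest stem in each of the 6 libraries is the region at -21.8 kb, with pileups of 154, 152 and 152 with Res-shFabp7 and 104, 126 and 167 with Res-ctrl.

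The strongest region of the locus was the same in every library. The region at -21.8 kb (chr10:118418825-118419592) had pileups of 154, 152 and 152 in the Res-shFabp7 libraries and 104, 126 and 167 in the Res-ctrl libraries. The authors' fold, the ratio of summit coverage to local background, was 25.6, 28.8 and 26.8 with Res-shFabp7 and 26.3, 29.1 and 28.3 with Res-ctrl, and the groups overlapped in both measures. The region lies close to the conserved element named CNS-22, which T-bet is known to bind and which T cells are known to need for Ifng expression. The region at -36.4 kb was 2nd by pileup in every library but Res-ctrl 2, where it was 3rd. This region (chr10:118404516-118404790) had pileups of 87, 75 and 80 with Res-shFabp7 and 45, 37 and 71 with Res-ctrl. The region at 17.9 kb downstream (chr10:118458727-118459234) was 3rd to 5th, with 79, 73 and 72 with Res-shFabp7 and 37, 33 and 60 with Res-ctrl. The region at -70.4 kb, with pileups of 53, 58 and 66 with Res-shFabp7 and 39, 44 and 54 with Res-ctrl, lay at the upstream end of the locus and was 2nd in Res-ctrl 2 but 9th in Res-shFabp7 1. It had folds of 23.7, 25.4 and 28.0 with Res-shFabp7 and 22.6, 23.4 and 24.2 with Res-ctrl, so it stood high over its local background in all libraries. At the weak end, the regions at -45.5 kb, -28.1 kb and -66.7 kb had pileups of 5 to 20 in all libraries.

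Conserved elements and CTCF sites of the mouse locus are known by nominal distances from the gene start. All 11 nominal distances compared (-70, -54, -34, -22, -6, 18, 20, 29, 46, 55 and 66 kb) had a region within 1 kb of them, and 9 of the 11 had a shared region there. Of the 177.9 kb assigned to Ifng, 32.3% lay within 1 kb of a region and 19.6% within 1 kb of a shared region. The match is by distance only. The nominal distances were chosen with earlier results of these data known, so these counts describe the locus and test nothing. The nominal positions at -70 and 66 kb are known as CTCF sites that bound the locus. The first had the shared region described above. The second had 3 regions within 1 kb, of which those at 65.3 kb and 66.8 kb downstream were each called in 5 of 6 libraries. The region at 65.3 kb had no peak in Res-ctrl 1, and the region at 66.8 kb had none in Res-shFabp7 3. The shared region at 1.1 kb (chr10:118442014-118442288, inside the gene) had pileups of 29, 16 and 25 with Res-shFabp7 and 19, 12 and 26 with Res-ctrl.

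**Figure D2:**
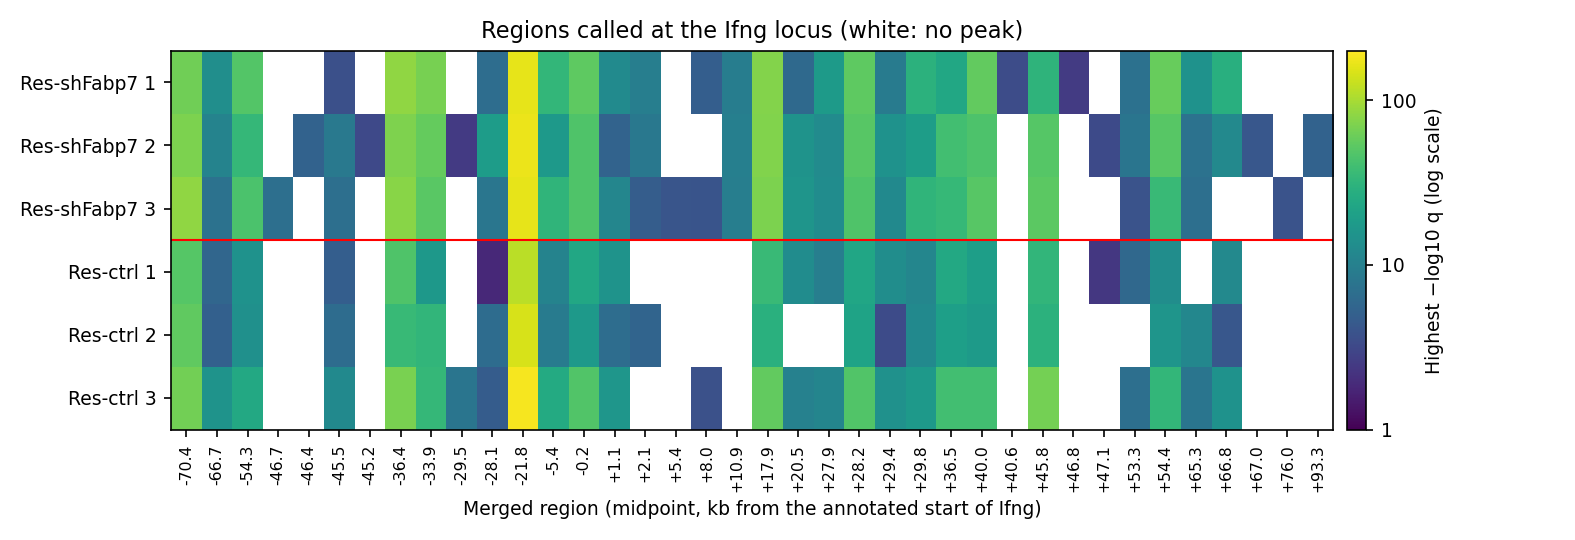
Strength of each of the 38 Ifng regions in each library. Columns are merged regions in order of distance in kb from the annotated start, rows are libraries with Res-shFabp7 above Res-ctrl, colour is the highest −log10 q of the library's peaks in the region on a log scale, and white marks no peak. White squares are more frequent in the Res-ctrl rows, and the column at 10.9 kb is filled in all 3 Res-shFabp7 rows and empty in all 3 Res-ctrl rows.

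More peaks were called at Ifng with Res-shFabp7, whose lists were also longer as a whole. Ifng had 29, 32 and 29 peaks in the Res-shFabp7 libraries and 25, 22 and 28 in the Res-ctrl libraries, so the groups did not overlap. The means were 30.0 ± 1.73 with Res-shFabp7 and 25.0 ± 3.00 in the Res-ctrl libraries (n = 3 each, ± SD). The two-sided exact permutation test gave p = 0.1, which is the lowest value possible with 3 libraries a group. Peak number was higher without overlap at 11.1% of the genes with any peak, at 31.4% of the 704 genes with at least 120 peaks over the 6 libraries, and lower without overlap at 0.550% of genes. As a share of its list, Ifng had 0.277, 0.302 and 0.289 peaks per 1000 with Res-shFabp7 and 0.295, 0.268 and 0.291 with Res-ctrl, and the groups overlapped (exact permutation p = 0.7), while 7.29% of genes had a higher share without overlap. With every list limited to its strongest 82153 peaks, the length of the shortest list, Ifng had 25, 28 and 24 peaks with Res-shFabp7 and 23, 22 and 26 with Res-ctrl, which overlapped (exact permutation p = 0.4).

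Peaks at Ifng covered 8349, 7965 and 7986 bp in the Res-shFabp7 libraries and 6084, 5769 and 7665 bp in the Res-ctrl libraries. The means were 8100 ± 216 bp with Res-shFabp7 and 6506 ± 1016 bp in the Res-ctrl libraries (n = 3 each, ± SD; exact permutation p = 0.1) without overlap, as at 28.6% of genes with any peak. From equal numbers of peaks the coverage was 7873, 7620 and 7395 bp with Res-shFabp7 and 5906, 5769 and 7490 bp with Res-ctrl, and Res-ctrl 3 lay within the Res-shFabp7 range (exact permutation p = 0.2). The median fold of all Ifng peaks of a library was 10.0, 8.0 and 7.45 with Res-shFabp7 and 9.16, 10.0 and 9.22 with Res-ctrl (exact permutation p = 0.3).

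One region was called with Res-shFabp7 only and 0 with Res-ctrl only. Over all merged regions these shares were 2.28% and 0.155%, so 1 of 38 is near the background. The region lies at 10.9 kb, 6098 bp past the gene end (chr10:118451797-118452187), with pileups of 15, 14 and 15, folds of 6.78, 7.39 and 6.94 and −log10 q of 9.36, 9.93 and 9.60 in the Res-shFabp7 libraries, and no peak in the Res-ctrl libraries. Pileups of this size were also present in the shared regions of the Res-ctrl libraries, which held peaks down to 5, 9 and 9. These pileups are not scaled for depth, which was 0.709 and 0.608 in Res-ctrl 1 and 2. The part of depth in the missing peaks was not tested. Equal numbers of peaks gave 1 region with Res-shFabp7 only and 0 with Res-ctrl only as well, against 1.13% and 0.527% of all regions. Without Res-ctrl replicate 2 the count was 2, as the region at 2.1 kb inside the gene (chr10:118443012-118443277), with pileups of 26, 20 and 17 in the Res-shFabp7 libraries, had 1 Res-ctrl peak, of 11 in Res-ctrl 2. In 9 regions a single library held a peak, and it was a Res-shFabp7 library in all 9, as in 70.5% of the 31253 single-library regions of all genes. These peaks were low, with pileups of 7 to 13. Altogether 10 of the 38 regions had no Res-ctrl peak, as 23.7% of all regions did, and 0 had no Res-shFabp7 peak, as 7.97% of all regions did. In 4 of the 5 regions held by 5 libraries, the missing library was a Res-ctrl library, as in 80.8% of all such regions.

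Heights were then compared over the 56610 regions called in all 6 libraries. Pileup was turned into its percentile among those regions within each library, so that a uniform difference in depth drops out. The percentile ranks a region against open regions of all genes. In bulk chromatin, more cells with an open region and more open DNA per cell cannot be told apart. The median percentile of the 19 shared Ifng regions was 49.7, 53.4 and 52.6 in the Res-shFabp7 libraries and 37.4, 35.2 and 46.8 in the Res-ctrl libraries. The groups did not overlap, with means of 51.9 ± 1.91 with Res-shFabp7 and 39.8 ± 6.16 in the Res-ctrl libraries (n = 3 each, ± SD; exact permutation p = 0.1). Leaving out Res-ctrl 3, the deepest Res-ctrl library, the difference in means was 15.6 percentile points, and without Res-ctrl 2 it was 9.76.

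Region by region, 9 of the 19 shared regions had a higher percentile in every Res-shFabp7 library than in any Res-ctrl library, and 0 were lower without overlap. Among all shared regions 11.6% were higher and 11.2% lower without overlap. For the 18 Ifng regions over 1 kb from gene ends the count was 8, against 13.2% higher and 10.2% lower among such regions of all genes. No region passed adjustment. By limma on normal scores of the ranks, with Benjamini-Hochberg adjustment over all 56610 regions, 0 of 19 had an adjusted p under 0.05, and the lowest adjusted p was 0.111. Unadjusted p-values under 0.05 were found for 9 regions higher and 0 lower, against 8.27% and 7.40% of all shared regions. Genome-wide 1 region passed, which is 0.00177%, higher with Res-shFabp7, and 0 passed as lower. On quantile-normalised log2 heights 0 of 19 passed as well, with a lowest limma adjusted p of 0.0770 and unadjusted p under 0.05 for 9 higher and 0 lower.

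**Figure D3:**
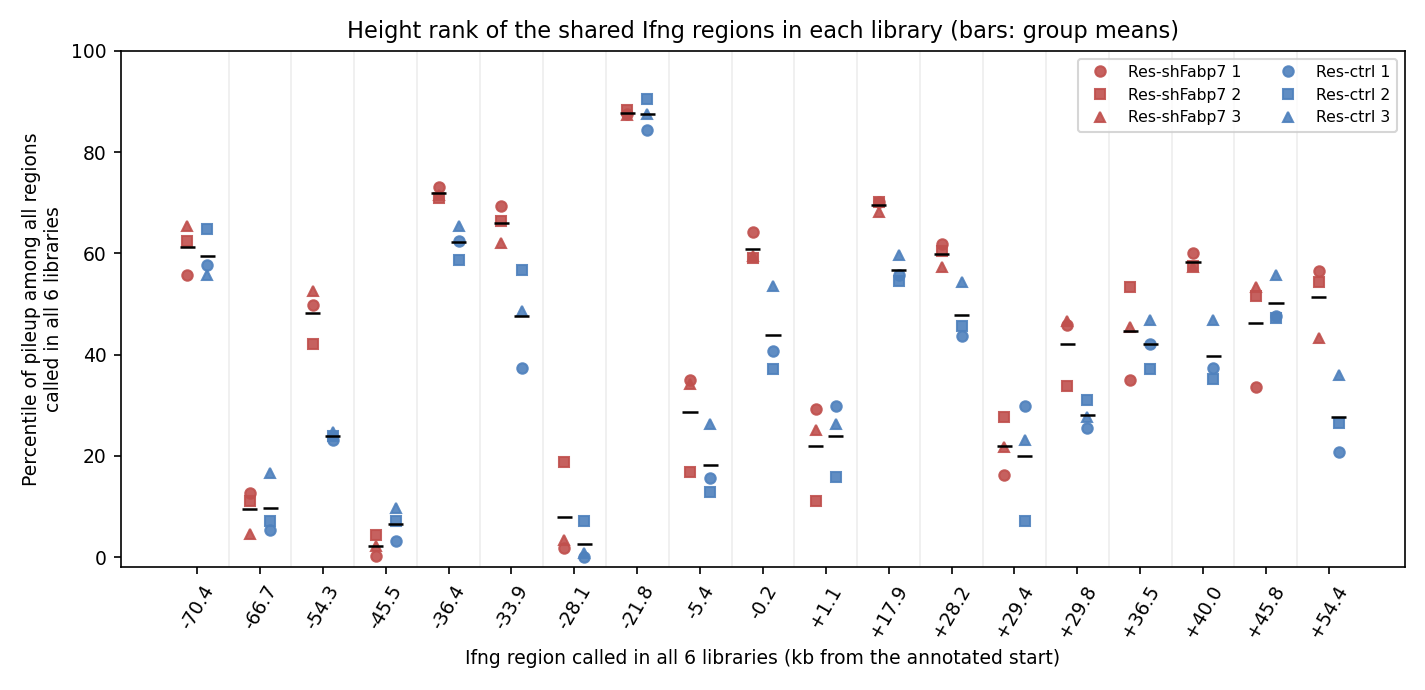
Height rank of the 19 shared Ifng regions. Each point is a library's percentile of pileup among all regions called in all 6 libraries (y axis), Res-shFabp7 left of Res-ctrl at each region, with bars for group means and the distance in kb from the annotated start on the x axis. The groups are farthest apart at -54.3 kb, with 49.7, 42.2 and 52.6 for Res-shFabp7 against 23.2, 23.9 and 24.8 for Res-ctrl, and overlap at -21.8 kb.

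The 9 regions lay on both sides of the gene. The widest gap in mean percentile was at -54.3 kb (chr10:118386364-118387192), near the nominal -54 kb element. Its pileups were 46, 35 and 47 with Res-shFabp7 and 16, 15 and 25 with Res-ctrl. Its percentiles were 49.7, 42.2 and 52.6 with Res-shFabp7 and 23.2, 23.9 and 24.8 with Res-ctrl, and the groups did not overlap. The difference was 0.66 in normal score (SE 0.0946; limma across all shared regions, unadjusted p = 0.000334 and adjusted p = 0.111). In this score 1 unit is 1 SD of the normal distribution onto which the ranks of all shared regions were mapped. At 54.4 kb downstream (chr10:118495234-118495682), the percentiles were 56.5, 54.3 and 43.2 with Res-shFabp7 and 20.8, 26.6 and 36.0 with Res-ctrl, and the pileups 54, 47 and 38 with Res-shFabp7 and 15, 16 and 33 with Res-ctrl. The difference was 0.63 (SE 0.1504, limma adjusted p = 0.172).

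The promoter region (chr10:118440586-118441198, from -460 to 152 of the start) belonged to the 9 as well. Only the 250 bases before the start are shown above, and the rest of this region was not searched for motifs. The region's summits lay from -410 to -149 across libraries. Its pileups were 66, 53 and 56 with Res-shFabp7 and 25, 21 and 51 with Res-ctrl, and its percentiles 64.2, 59.0 and 59.5 with Res-shFabp7 and 40.7, 37.2 and 53.6 with Res-ctrl. Res-ctrl 3 was the closest of the Res-ctrl libraries to the Res-shFabp7 range (difference 0.44, SE 0.128, limma adjusted p = 0.212). Measured as fold, the promoter did not separate the groups, with 13.7, 14.5 and 13.8 with Res-shFabp7 and 12.8, 10.1 and 15.7 with Res-ctrl.

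Upstream, the region at -33.9 kb (chr10:118406895-118407376) had percentiles of 69.4, 66.4 and 62.1 with Res-shFabp7 and 37.4, 56.7 and 48.7 with Res-ctrl. The region at -36.4 kb had 73.2, 70.9 and 71.5 with Res-shFabp7 and 62.4, 58.7 and 65.4 with Res-ctrl. Downstream, the region at 40.0 kb (chr10:118480840-118481239) had 60.02, 57.6 and 57.4 with Res-shFabp7 and 37.4, 35.2 and 46.8 with Res-ctrl. These 3 differed by 0.47, 0.27 and 0.47 in normal score (limma adjusted p = 0.214, 0.224 and 0.157). The region at 17.9 kb had percentiles of 70.2, 70.1 and 68.2 with Res-shFabp7 and 55.7, 54.6 and 59.6 with Res-ctrl. At 28.2 kb (chr10:118469112-118469480) the percentiles were 61.9, 60.4 and 57.4 with Res-shFabp7 and 43.6, 45.7 and 54.4 with Res-ctrl, and at 29.8 kb (chr10:118470674-118470984) they were 45.8, 33.9 and 46.6 with Res-shFabp7 and 25.5, 31.1 and 27.8 with Res-ctrl. Apart from the regions at -33.9 kb and 29.8 kb, the highest Res-ctrl library in each of the 9 was Res-ctrl 3, the deep one. The part of depth in these ranks was not tested.

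The other 10 shared regions overlapped between groups. The region at -21.8 kb had percentiles of 87.5, 88.3 and 87.3 with Res-shFabp7 and 84.4, 90.4 and 87.5 with Res-ctrl, a difference of 0.00467 (SE 0.0980, limma adjusted p = 0.987). The region at -70.4 kb, near the nominal CTCF site, had 55.7, 62.4 and 65.4 with Res-shFabp7 and 57.6, 64.7 and 55.8 with Res-ctrl, a difference of 0.05 (SE 0.108). At -5.4 kb, near the nominal -6 kb element (chr10:118435383-118435870), the percentiles were 35.1, 16.8 and 34.3 with Res-shFabp7 and 15.6, 12.9 and 26.3 with Res-ctrl. The region at 45.8 kb had 33.6, 51.6 and 53.4 with Res-shFabp7 and 47.7, 47.2 and 55.8 with Res-ctrl, and that at 1.1 kb had 29.3, 11.1 and 25.2 with Res-shFabp7 and 29.9, 15.8 and 26.3 with Res-ctrl. Differences were negative at 4 shared regions (-66.7, -45.5, 1.1 and 45.8 kb) and positive at 15. The largest in size among the overlapping regions were at 2 weak ones. At -28.1 kb it was 0.77 (SE 0.505, limma adjusted p = 0.506), with percentiles of 1.83, 18.7 and 3.31 with Res-shFabp7 and 0.0592, 7.12 and 0.802 with Res-ctrl. At -45.5 kb it was -0.65 (SE 0.312, limma adjusted p = 0.377), with 0.209, 4.42 and 2.26 with Res-shFabp7 and 3.22, 7.12 and 9.64 with Res-ctrl. The median difference over the 19 was 0.30, against -0.01 over all shared regions. Of the 1128 genes with at least 10 shared regions, 7, Ifng included, had a median difference at or above that of Ifng, with Fcgr1, an Fc receptor gene (0.50), and Tet2, a DNA demethylation enzyme (0.42), the highest. Genes with fewer shared regions were not ranked. They include all cytokine loci examined below except Xcl1, with medians from -0.15 at Il5 to 0.59 at Il3.

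Heights at marker genes were compared in the same way. Among the 7 shared regions of the B cell markers 3 were higher and 0 lower without overlap, all 3 at Pax5, where the median difference was 0.93. T cell markers had 17 higher and 11 lower of 106 shared regions, and CD8 markers 6 higher and 3 lower of 44. For comparison, 11.6% of all shared regions were higher and 11.2% lower without overlap. There were 0 higher and 4 lower of 17 at CD4 and regulatory T cell markers, 1 higher and 2 lower of 15 at myeloid markers, and 0 in either direction of 13 at NK markers and of 10 at epithelial tumour markers. Regions called with Res-shFabp7 only were 2 of 20 at epithelial tumour markers, both at Epcam, and 2 of 27 at B cell markers, both at Ebf1. The counts were 3 of 219 at T cell, 0 of 88 at CD8, 1 of 34 at CD4 and regulatory, 0 of 28 at NK and 1 of 40 at myeloid markers. Each list had 0 with Res-ctrl only, against 2.28% and 0.155% of all regions. Equal numbers of peaks gave 0 at epithelial tumour markers and 2 at B cell markers, against 1.13%. The part of other cells in the values at Ifng was not tested.

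Set against the -21.8 kb region of its own library, 9 of the 18 other shared regions had a higher ratio of pileups in every Res-shFabp7 library, and 0 a lower one. Of all other regions called in all 6 libraries, 12.6% were higher and 4.43% lower in their ratio to the same pileup, and every ratio of a library shares that 1 denominator. The -54.3 kb region reached 0.299, 0.230 and 0.309 of the -21.8 kb pileup with Res-shFabp7 and 0.154, 0.119 and 0.15 with Res-ctrl. The promoter reached 0.429, 0.349 and 0.368 with Res-shFabp7 and 0.240, 0.167 and 0.305 with Res-ctrl. This ratio uses no other gene, but the 9 regions and the pileups are the same as in the percentiles. It restates that comparison within the locus and is not separate support for it. The order of the 19 regions by pileup was much alike in all libraries. Spearman's rho across the 19 regions was 0.914 to 0.958 in the 6 pairs of libraries within a group and 0.728 to 0.946 in the 9 pairs between groups, given as a description, since the regions of a pair share its 2 libraries and their depths.

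The difference was smaller when height was measured as fold over local background. Percentiles of fold were higher without overlap at 3 of the 19 shared regions (-54.3, 17.9 and 54.4 kb) and lower at 1 (1.1 kb), against 8.75% higher and 10.9% lower among all shared regions. By limma on fold 0 regions passed adjustment, with unadjusted p under 0.05 for 2 higher and 1 lower, and the median difference was 0.14 in place of 0.30. The median percentile of fold was 65.2, 65.4 and 64.2 with Res-shFabp7 and 50.4, 54.9 and 65.4 with Res-ctrl, and the groups overlapped through Res-ctrl 3 (exact permutation p = 0.4). At -54.3 kb the fold was 18.4, 15.0 and 16.1 with Res-shFabp7 and 9.95, 9.92 and 13.0 with Res-ctrl.

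Local background itself was higher at Ifng with Res-shFabp7. Recovered from each peak's pileup and fold and divided by the most frequent background of the library, its median over the shared Ifng regions was 2.44, 2.85 and 2.39 in the Res-shFabp7 libraries and 1.57, 1.58 and 1.89 in the Res-ctrl libraries. The groups did not overlap, and the means were 2.56 ± 0.252 with Res-shFabp7 and 1.68 ± 0.179 in the Res-ctrl libraries (n = 3 each, ± SD; exact permutation p = 0.1). Over all shared regions the same median was 3.07, 3.20 and 3.10 with Res-shFabp7 and 3.01, 3.15 and 3.11 with Res-ctrl (exact permutation p = 0.6). Single Ifng regions were higher without overlap in 13 of 19 cases and lower in 0, against 13.8% higher and 13.8% lower among all shared regions. Neighbouring regions can share 1 background window, which also holds their own reads, so the 13 are not independent of each other or of the pileups. At the promoter the unscaled local background was 3.89, 2.73 and 3.14 with Res-shFabp7 and 1.03, 1.17 and 2.303 with Res-ctrl.

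**Figure D4:**
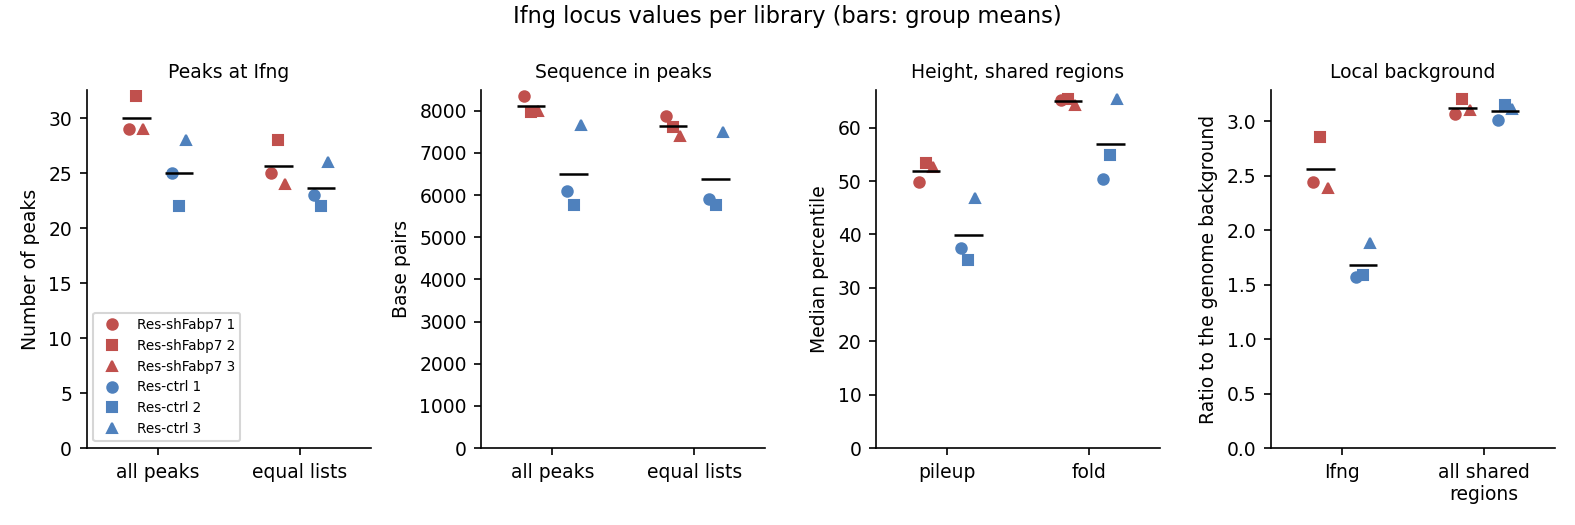
Values of the Ifng locus in each library, Res-shFabp7 left of Res-ctrl, with bars for group means. From left to right, the panels show the number of peaks and the base pairs in peaks (each from all peaks and from lists of equal length), the median percentile of the 19 shared regions by pileup and by fold, and the median local background over the library's genome background at the shared Ifng regions and at all shared regions. Local background is 2.39 to 2.85 with Res-shFabp7 and 1.57 to 1.89 with Res-ctrl at Ifng, and the groups overlap over all shared regions.

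The edges of the locus were quiet upstream and active downstream. Upstream, the next peak past the -70.4 kb region lay at -129.4 kb, was assigned to Iltifb and was a single Res-shFabp7 2 peak with a pileup of 7. Downstream, the last peak assigned to Ifng was at 93.3 kb, with a pileup of 9 in Res-shFabp7 2. Just outside the distance limit, 100.3 kb past the gene end, a region (chr10:118546101-118546201) had pileups of 20 and 17 in Res-shFabp7 1 and 3 and no peak in the other libraries. A stronger region 104.5 kb past the gene end (chr10:118550112-118550699) had pileups of 99, 66 and 53 with Res-shFabp7 and 43, 33 and 65 with Res-ctrl. Between the distance limit and Dyrk2, the next gene downstream, there were 41, 45 and 40 peaks with Res-shFabp7 and 36, 34 and 38 with Res-ctrl.

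Ifng shares its neighbourhood with the cytokine genes Il22 and Iltifb, a duplicate of Il22 whose near-identical sequence can leave reads hard to place. Il22, which encodes interleukin 22, had 1 peak in each of the 6 libraries. Iltifb had 2, 3 and 2 peaks with Res-shFabp7 and 0, 0 and 1 with Res-ctrl. The 8 neighbouring genes had 121 to 140 peaks with Res-shFabp7 and 107 to 127 with Res-ctrl, and 3 of their 164 regions were called with Res-shFabp7 only and 0 with Res-ctrl only, near the 2.28% and 0.155% of all regions. Of the 3, 2 were at Rap1b, a small GTPase of integrin activation, and 1 at Dyrk2, a protein kinase. Equal numbers of peaks gave 3 regions with Res-shFabp7 only and 1 with Res-ctrl only, against 1.13% and 0.527% of all regions. Of the neighbours' 77 shared regions 9 were higher and 8 lower without overlap in percentile of pileup, near the 11.6% and 11.2% of all shared regions. Their median difference was -0.04. By limma 0 had an adjusted p under 0.05. Unadjusted p was under 0.05 for 7 higher and 5 lower, against 8.27% and 7.40% of all shared regions.

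Other cytokine loci were examined as a list of 17 genes that T cells can express, Il22 again among them. Their peaks summed to 131 to 142 with Res-shFabp7 and 82 to 119 with Res-ctrl, and 5 of their 183 regions (2.73%) were called with Res-shFabp7 only and 0 with Res-ctrl only, near the 2.28% and 0.155% of all regions. From equal numbers of peaks 2 were called with Res-shFabp7 only and 1 with Res-ctrl only, against 1.13% and 0.527% of all regions. Of the 5 regions, 2 were at Il21, a cytokine of T cell help, and 1 each at Il13, Ccl5 and Xcl1, the last a chemokine of activated CD8+ T cells. Il21 had 24, 21 and 20 peaks with Res-shFabp7 and 17, 8 and 18 with Res-ctrl, and Il2, the T cell growth factor, had 14, 9 and 11 with Res-shFabp7 and 7, 6 and 8 with Res-ctrl. Tnf had 2 peaks in every library. Among the list's 67 shared regions 18 were higher and 5 lower without overlap, where 11.6% and 11.2% of all shared regions were, and the median difference was 0.18. By limma 0 passed adjustment. Unadjusted p was under 0.05 for 19 higher and 3 lower, against 8.27% and 7.40% of all shared regions.

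Among 12 genes that induce Ifng or carry the signals that do, all 12 had peaks in every library. The sums were 200 to 206 with Res-shFabp7 and 170 to 199 with Res-ctrl. Of 267 regions 2 were called with Res-shFabp7 only, 1 at Stat4, the transducer of IL-12 signals, and 1 at Hlx, a homeobox factor that acts with T-bet, and 0 with Res-ctrl only. This is 0.749%, below the 2.28% of all regions. Equal numbers of peaks gave 2 regions in each direction, against 1.13% and 0.527% of all regions. Shared regions were higher without overlap in 15 of 133 and lower in 11, against 11.6% and 11.2% of all shared regions. Their median difference was 0.02, and limma gave 0 adjusted calls. Unadjusted p was under 0.05 for 9 higher and 5 lower, against 8.27% and 7.40% of all shared regions. Il2ra, the IL-2 receptor alpha chain, had a median difference of 0.21. For Tbx21 (T-bet), Eomes and Runx3 it was 0.06, -0.05 and -0.04.

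The interferon gamma receptor and its signalling genes were examined as a list of 5. Ifngr1, the ligand-binding chain, had 26, 30 and 29 peaks with Res-shFabp7 and 26, 23 and 30 with Res-ctrl. Jak2, a kinase of the receptor, had 28, 25 and 26 peaks with Res-shFabp7 and 19, 15 and 22 with Res-ctrl, and held all 3 regions of the list called with Res-shFabp7 only. Its partner kinase Jak1 had the 1 region called with Res-ctrl only. These are 3 and 1 of 173 regions, where 2.28% and 0.155% of all regions were called with 1 group only. From equal numbers of peaks 1 region was called with Res-shFabp7 only, at Jak2, and 2 with Res-ctrl only, at Jak1. The shares of all regions were then 1.13% and 0.527%, and counts this small give no direction. Of the 79 shared regions 5 were higher and 9 lower without overlap, against 11.6% and 11.2% of all shared regions. Limma gave 0 adjusted calls and unadjusted p under 0.05 for 3 higher and 6 lower, against 8.27% and 7.40% of all shared regions. Among 9 targets and brakes of interferon gamma, 1 of 127 regions was called with Res-shFabp7 only, at Irf1, a transcription factor of the interferon response, and 0 with Res-ctrl only, and equal numbers of peaks gave 0 in both directions. No peak was assigned to Cxcl10, an interferon-induced chemokine, in any library. The 55 shared regions of the targets and brakes were higher without overlap in 8 cases and lower in 10, against the same 11.6% and 11.2%. Limma gave 0 adjusted calls and unadjusted p under 0.05 for 3 higher and 8 lower, against the same 8.27% and 7.40%.

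The 5 genes most like Ifng in their number of peaks were those with the smallest summed absolute difference over the 6 libraries. They were Pfkfb3 (summed difference 4), Hbs1l (6), Mvb12b (6), Mbd2 (7) and Aak1 (7). Pfkfb3, an enzyme of glycolytic control, had 29, 32 and 28 peaks with Res-shFabp7 and 23, 22 and 27 with Res-ctrl. Hbs1l had 29, 29 and 29 with Res-shFabp7 and 25, 24 and 29 with Res-ctrl.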

How the data were processed

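Libraries of 3 Res-shFabp7 and 3 Res-ctrl samples were sequenced as read pairs of 76 bases, 35 to 75 M pairs per library, per the labels' protocols, which call them biological replicates. The submitters' processing notes name MACS2 2.2.7.1, Bowtie 1.1.2, cutadapt 2.8 and Trim Galore 0.6.5 and the build mm10. The sources used here do not give the transposase shift, duplicate handling or MACS2 mode. Each library has its own list, deposited by the authors and called at q of 0.05, with each peak's summit, p-value and q-value as −log10, pileup (coverage signal at the summit) and fold (ratio to local background). These are the authors' own values per peak. Starts count from 0 in the lists, as read from the values, and are given here from 1.

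Peaks were assigned by summit and merged at an overlap of 1 bp or more. Local background was computed as (pileup + 1)/fold − 1. Two-sided exact permutation tests served for single values per library. Regions called in all 6 libraries were ranked within each library, and normal scores of the ranks were fitted with limma 3.58.1 in R 4.3.3, without a replicate block. The fit was tested on simulated data with a shift of 1 normal score, larger than any difference at the shared Ifng regions. It was not tested at smaller shifts, so a region that did not pass is not shown to be unchanged. Because 3 against 3 libraries cannot reach p under 0.1, no single library value can pass 0.05. A missing peak is not the absence of accessibility, since a list holds only what passed the threshold. The libraries were not treated as paired by replicate number.

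Ifng, the gene lists, nominal distances and tests were chosen with earlier results of these data known. Named in full were regions over the start, inside the gene, called in 1 group only, among the 5 highest or 3 lowest, or near nominal distances, and in the lists the genes with a region called in 1 group only. Regions without group overlap, and the genes named from the lists beside these, were chosen after their values were seen. Apart from the 250 promoter bases shown, peak sequences were not analysed here.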

Additional observations from a re-analysis of the deposited data

How the results depend on the processing

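Fewer peaks (q of 0.01 or 0.001, equal lists), 20 kb in place of 100 kb, merging across 200 bp, peaks that cover 50% of a region, 2 of 3 libraries in place of 3 and leaving out 1 library kept the direction of the number of peaks, base pairs and median percentile, where those settings applied, and 0 of the shared Ifng regions passed limma adjustment. The differences, Res-shFabp7 minus Res-ctrl, ranged from 1.67 to 6.5 peaks, 829 to 2174 bp and, by fold in the lowest case, 7.996 to 15.6 percentile points. The groups, which did not overlap with all peaks, overlapped in number of peaks at q of 0.001 (exact permutation p = 0.2), within 20 kb (p = 0.3) and with equal lists (p = 0.4), in base pairs with equal lists (p = 0.2), and in median percentile within 20 kb (p = 0.2) and by fold (p = 0.4). Regions called with Res-ctrl only numbered 0 in every one of these settings. Regions over 1 kb from gene ends and ratios to the -21.8 kb region were added after seeing the data. The median difference of heights was 0.14 by fold in place of 0.30, and 0.24 to 0.37 when 1 library was left out. The number of regions called with Res-shFabp7 only was 1 to 2 when 1 library was left out. The difference in peaks per 1000 ranged from -0.00300 to 0.0115 when 1 library was left out. The cause of these changes was not tested.

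Directions of small differences turned at some regions. By fold they were 0.0545 at -66.7 kb, -0.11 at -21.8 kb, -0.0598 at 29.4 kb and -0.21 at 36.5 kb, and at -66.7 kb 0.00924 with q of 0.001 and 0.00225 on quantile-normalised log2 heights. Over the sets that leave out 1 library the ranges were -0.00950 to 0.12 at -70.4 kb, -0.13 to 0.18 at -66.7 kb, -0.0677 to 0.0792 at -21.8 kb, -0.23 to 0.12 at 1.1 kb, -0.16 to 0.31 at 29.4 kb, -0.0472 to 0.19 at 36.5 kb and -0.20 to 0.0564 at 45.8 kb.

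The replicate numbers are shared between groups, but the deviations of same-numbered libraries from their group means correlated at -0.0245, 0.0150 and -0.0158, so the numbers were not taken as pairs. With the replicate block limma called 0 of 19 regions (lowest adjusted p = 0.246, unadjusted p under 0.05 for 9 higher and 1 lower), and the median difference was again 0.30. Exact sign flips over the 3 pairs gave p = 0.25, the smallest possible, for the differences of 5.0 peaks, 1594 bp and 12.1 percentile points, and p = 1 for peaks per 1000. Relative depth was lowest in Res-ctrl 1 and 2, and its part in the counts of peaks was not tested.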
